A study of Mus musculus with 6 samples.

Results

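The genes described here are those of glycolysis, of lactate and of the entry of pyruvate into mitochondria. They were taken by symbol from the count table of injured mouse spinal cord motor neurons. All 34 listed symbols were found among 53858 genes. *Aldoa* had 2 rows, of which the second held 0 counts and was not used. Of the 34 genes, 31 had enough counts to be tested. *Hk2*, *Slc16a3* and *Slc16a7* did not.

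Poly(A) RNA was sequenced from 6 libraries of picked, fluorescent spinal cord motor neurons of wild-type (WT) mice, whose age and strain are not stated in the labels. Every animal had a sciatic nerve crush, every sampled neuron carried the lipophilic dye DiO applied proximal to the injury on day 0, and all libraries are from day 6. The 3 double-labelled pools (DiO+/DiI+) held neurons that had also taken up DiI, given distally on day 2, so that their regrowing axons had reached that site early. The 3 DiO-only pools (DiO+/DiI-) held injured neurons without the distal dye. No uninjured neurons are among the 2 groups, and a tube pooled 10 to 15 cells. The protocol names 3 batches without assigning libraries to them, so no within-batch value could be given. Whether the tubes of a group stem from different mice is not in the labels. The p-values therefore cover tube-to-tube spread, which may be technical. In pools of this kind, fewer cells of a type and less RNA per cell cannot be told apart.

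Total counts ran from 2997714 to 6563403 per library. Genes with at least 1 count numbered 15657 to 16467 in double-labelled pools and 17229 to 22118 in DiO-only pools. The 6 motor neuron markers checked (*Chat*, *Slc18a3*, *Slc5a7*, *Isl1*, *Mnx1* and *Prph*) summed to 2500 to 3730 CPM (counts relative to library size, scaled with TMM factors) in double-labelled pools and 2430 to 4110 CPM in DiO-only pools. Oligodendrocyte markers were higher in double-labelled pools for 11 of 11 tested genes. Their sum was 1460 to 4940 CPM in double-labelled pools and 288 to 592 CPM in DiO-only pools. Astrocyte markers were higher for 8 of 10 tested genes, with sums of 655 to 810 CPM in double-labelled pools and 312 to 952 CPM in DiO-only pools. *S100b* held most of the DiO-only sums, and the other 10 astrocyte markers summed to 307, 139 and 465 CPM in double-labelled pools, against 48.4, 45 and 138 CPM in DiO-only pools. Microglial markers summed to 22.3 to 65.9 CPM in double-labelled pools and 44.2 to 57.8 CPM in DiO-only pools, and endothelial markers to 3.08 to 5.86 CPM and 5.69 to 35.1 CPM in the same order. No marker on these lists was at 0 in all libraries. The endothelial markers *Cldn5* and *Cdh5* were at 0 in each double-labelled pool. Glia also express glycolytic genes, and the part of glial RNA and of the number of detected genes in the results that follow was not tested.

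Glycolysis splits glucose into pyruvate in the cytosol and yields ATP without oxygen. Lactate dehydrogenase converts pyruvate and lactate into each other, and the mitochondrial pyruvate carrier and the pyruvate dehydrogenase complex pass pyruvate on to the citric acid cycle. Many steps have isozymes. LDHA, ENO1 and GLUT1 are widespread forms, while ENO2 and GLUT3 are typical of neurons, and LDHB is abundant in tissues that oxidise lactate. Axon regrowth consumes much ATP, and the injured motor neuron has to supply it along the whole axon.

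In the double-labelled pools, 22 of 31 tested genes of the pathway lay below their DiO-only level (71.0%, against 48.7% of all 12954 tested genes). Their median log2 fold change was -0.30, beside 0.02 over all tested genes. No gene passed edgeR's quasi-likelihood test at an adjusted p under 0.05, either among the 31 or among all 12954 (percent called 0). Among the 31 the adjusted p was at least 0.718. The unadjusted p was under 0.05 for 3 of 31 (9.68%, against 5.81% of all tested genes): *Eno1* and *Ldha* lower (2.63% of all genes were lower at this level) and *Pdk2* higher (3.18%). The groups did not overlap for 6 of 31 (19.4%, against 12.9% of all tested genes): *Aldoa*, *Gapdh*, *Pkm*, *Ldha*, *Slc2a1* and *Pdha1*. All 6 were lower in the double-labelled pools, where 7.07% of all genes were lower without overlap and 5.86% higher. With total counts in place of TMM scaling, *Pdha1* was the only gene of the 31 whose groups did not overlap (3.23%, against 11.2% of all tested genes), so the share of the pathway was then below that of all genes. The share was also no higher than that of all genes without double-labelled pool 1 (25% of 32, against 25.3%) and without double-labelled pool 2 (21.9% of 32, against 26.1%). In the 2 fits that started from all genes, the median of the pathway was not below that of all genes (-0.316 beside -0.345 with edgeR and -0.278 beside -0.313 with DESeq2).

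**Figure D1:**
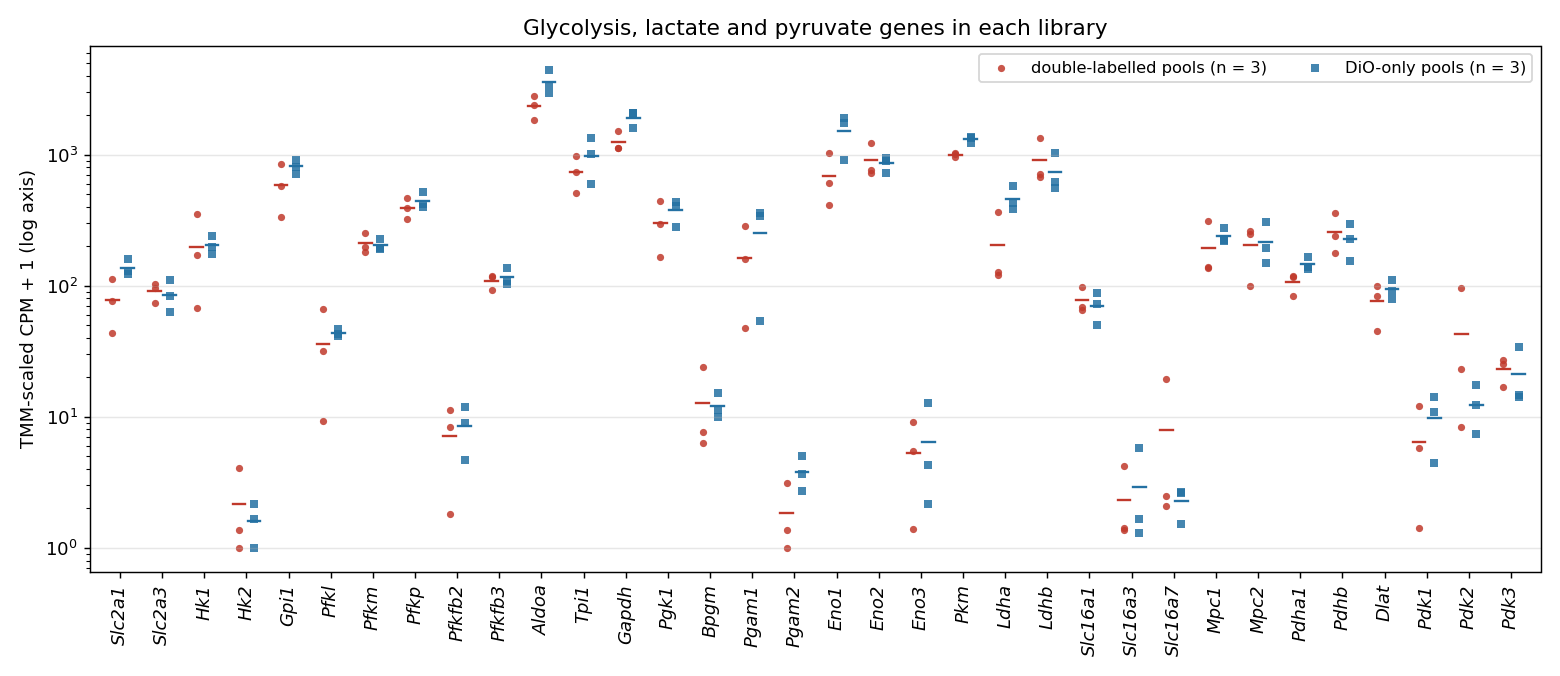
TMM-scaled CPM + 1 on a log axis for the 34 genes in pathway order, with 1 point per pool and short lines at group means (n = 3 each). *Aldoa*, *Gapdh*, *Pkm*, *Ldha*, *Slc2a1* and *Pdha1* have all double-labelled points under all DiO-only points, while *Ldhb* and *Eno2* overlap.

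**Figure D2:**
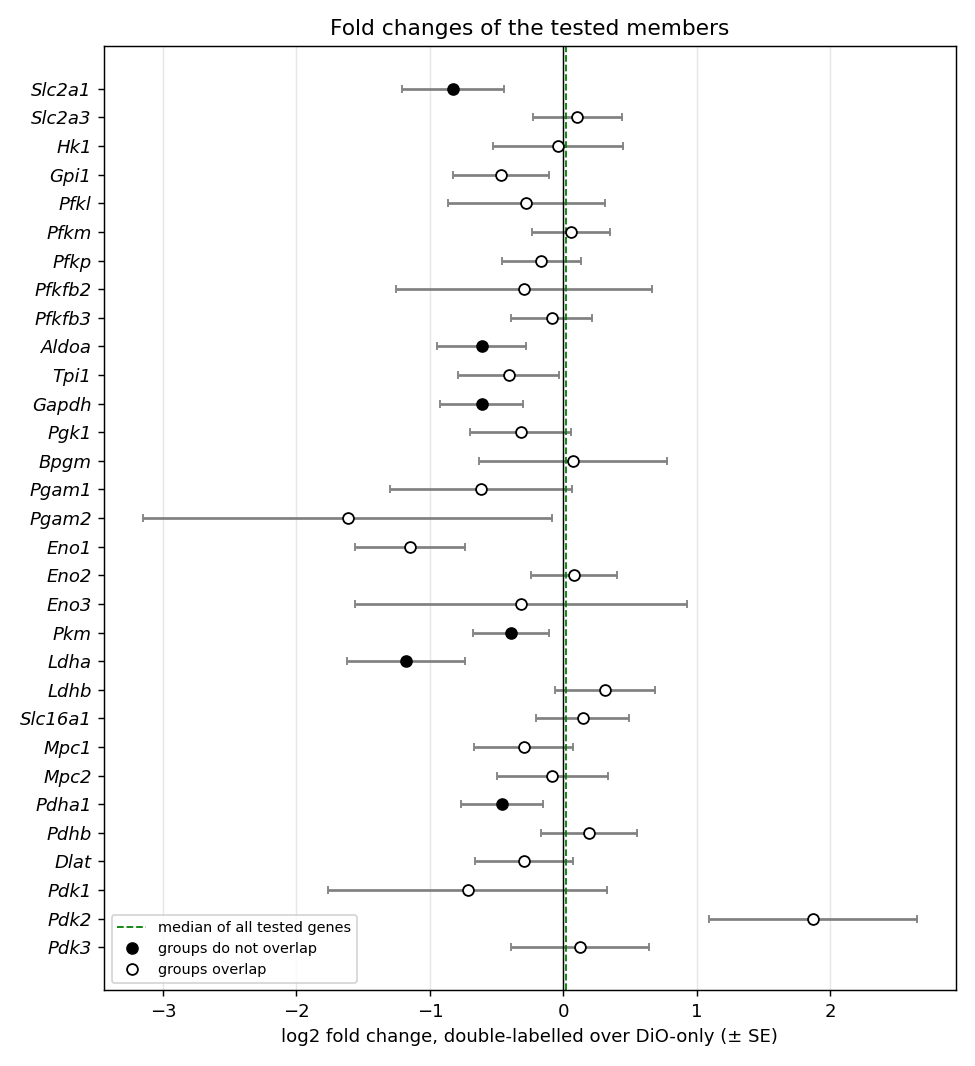
log2 fold changes of double-labelled over DiO-only pools with their SE for the 31 tested genes. Filled circles mark the 6 genes whose groups did not overlap, and the dashed line is the median of all tested genes at 0.02.

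GLUT1 (*Slc2a1*) and GLUT3 (*Slc2a3*) carry glucose into cells. *Slc2a1* stood at 42.7, 75.4 and 112 CPM in double-labelled pools 1, 2 and 3, against 121, 159 and 129 CPM in DiO-only pools 1, 2 and 3. The highest double-labelled pool was just below the lowest DiO-only pool. The log2 fold change was -0.83 ± 0.38 (SE; edgeR adjusted p = 0.861). The groups overlapped for *Slc2a3*, with 90.2 ± 15.5 CPM in double-labelled pools and 84.0 ± 23.5 CPM in DiO-only pools (SD, n = 3). An antisense gene over *Slc2a1*, *Gm12868*, had 0.485 to 10.7% of its counts per library, with a longest shared exon stretch of 105 bases.

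The phosphorylation and isomerisation of glucose showed no separation of the groups. Hexokinase 1 (*Hk1*), the main hexokinase of brain, averaged 196 ± 144 CPM in double-labelled pools and 202 ± 32.3 CPM in DiO-only pools (SD, n = 3). The double-labelled pools were far apart from each other, at 66.6, 171 and 351 CPM. The inducible *Hk2* was near the limit of counting, with 0, 1 and 23 counts in double-labelled pools and 8, 2 and 0 counts in DiO-only pools. Glucose-6-phosphate isomerase (*Gpi1*) had 335, 574 and 849 CPM in double-labelled pools, against 808, 709 and 914 CPM in DiO-only pools. Its groups overlapped, and its log2 fold change was -0.47 ± 0.36 (SE; edgeR adjusted p = 0.957).

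Phosphofructokinase catalyses the committed step, and its 3 subunits were all present. Platelet-type *Pfkp* averaged 393 ± 73.8 CPM in double-labelled pools and 441 ± 64.0 CPM in DiO-only pools (SD, n = 3). Per kilobase it made up 53.7 ± 7.23% of the 3 subunit transcripts in double-labelled pools and 56.5 ± 4.58% in DiO-only pools. Muscle-type *Pfkm* made up 41.0 ± 3.40% and 37.4 ± 4.13% in the same order, and liver-type *Pfkl* the rest. The 2 bifunctional enzymes that set the level of the activator fructose 2,6-bisphosphate were uneven in abundance: *Pfkfb3* stood at 108 ± 14.7 CPM in double-labelled pools and 115 ± 18.2 CPM in DiO-only pools, and *Pfkfb2* at 6.15 ± 4.85 CPM and 7.51 ± 3.65 CPM. The groups overlapped for all 5 genes, whose log2 fold changes lay between -0.29 and 0.05. *Pfkfb2* and *Pfkp* share exon sequence with the opposite-strand genes *Yod1* and *Pitrm1*. *Yod1* had 58.7 to 3280% of the counts of *Pfkfb2* per library, and *Pitrm1* 12.6 to 19.3% of those of *Pfkp*. The longest shared exon stretch was 154 bases for *Pfkfb2* and 748 bases for *Pfkp*. Reads in the shared sequence may belong to either gene, and how many lay there is not known.

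The steps from fructose bisphosphate to pyruvate held the most abundant transcripts. Of their 11 genes, 9 were lower in double-labelled pools (81.8%, against 48.7% of all tested genes), with a median log2 fold change of -0.41. Aldolase A (*Aldoa*), which splits fructose bisphosphate, was the most abundant of all 34 genes per transcript length, at 2797 ± 1250 TPM in double-labelled pools and 4199 ± 1612 TPM in DiO-only pools (SD, n = 3; TPM computed from counts per kilobase of the longest principal transcript). In CPM it stood at 2404, 1849 and 2792 in double-labelled pools, against 4428, 2959 and 3378 in DiO-only pools. The groups did not overlap, with a log2 fold change of -0.61 ± 0.33 (SE; edgeR adjusted p = 0.888). The opposite-strand gene *Fam57b* shares exon sequence with *Aldoa*, the longest stretch being 25 bases. Its counts were 4.29 to 14.7% of those of *Aldoa* per library.

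Glyceraldehyde-3-phosphate dehydrogenase (*Gapdh*), often used as a reference gene in PCR, was next in abundance among the glycolytic enzymes. It had 1127, 1120 and 1511 CPM in double-labelled pools, against 2071, 1607 and 2066 CPM in DiO-only pools. Here too the groups did not overlap, and the log2 fold change was -0.61 ± 0.31 (SE; edgeR adjusted p = 0.881). *Gapdh* has many processed copies: 179 annotated genes elsewhere matched its transcript over at least 200 bases at 90% identity or more, and 88 of them had counts, together 7.82% of those of *Gapdh*. For each of the other 33 genes such copies held at most 0.834% of the gene's counts. The opposite-strand gene *Iffo1* shares exon sequence with *Gapdh*, the longest stretch being 68 bases, and had 3.53 to 8.33% of its counts per library.

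Pyruvate kinase (*Pkm*), the last step, varied little between pools of a group. It stood at 1005, 1026 and 951 CPM in double-labelled pools, against 1222, 1336 and 1365 CPM in DiO-only pools. The groups were apart, and the log2 fold change was -0.40 ± 0.28 (SE; edgeR adjusted p = 0.956). The counts do not separate its splice forms PKM1 and PKM2.

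Triosephosphate isomerase (*Tpi1*) had 734, 509 and 972 CPM in double-labelled pools, against 1337, 590 and 1012 CPM in DiO-only pools, with overlap (log2 fold change -0.41 ± 0.38, SE; edgeR adjusted p = 0.970). Phosphoglycerate kinase (*Pgk1*), the first ATP-yielding step, averaged 300.4 ± 139 CPM in double-labelled pools and 375 ± 83.0 CPM in DiO-only pools (SD, n = 3). Phosphoglycerate mutase 1 (*Pgam1*) had 160, 46.8 and 282 CPM in double-labelled pools, against 355, 52.8 and 341 CPM in DiO-only pools. Pool 2 of either group was several times below the other pools, a spread between pools that is larger than the difference between the groups. *Pgam2*, *Eno3* (both muscle forms) and *Bpgm* (the red cell mutase) stayed under 24 CPM in every pool.

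Enolase and lactate dehydrogenase are 2 steps at which a widespread isozyme stands beside a second form. Enolase 1 (*Eno1*) stood at 602, 415 and 1028 CPM in double-labelled pools, against 1887, 912 and 1728 CPM in DiO-only pools. Double-labelled pool 3 lay above DiO-only pool 2, so the groups overlapped. The log2 fold change was -1.15 ± 0.41 (SE; edgeR unadjusted p = 0.0175, adjusted p = 0.718). The neuronal enolase *Eno2* stood at 722, 766 and 1228 CPM in double-labelled pools, against 727, 948 and 898 CPM in DiO-only pools. Its groups overlapped, with a log2 fold change of 0.08 ± 0.32 (SE; edgeR adjusted p = 0.987). The sign turned with limma voom (-0.025), without double-labelled pool 3 (-0.21) and without DiO-only pool 1 (-0.038).

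Lactate dehydrogenase is a tetramer of A and B subunits. *Ldha* stood at 119, 126 and 364 CPM in double-labelled pools, against 571, 382 and 428 CPM in DiO-only pools. Double-labelled pools 1 and 2 were far below all DiO-only pools, and pool 3 was just below the lowest of them. The log2 fold change was -1.18 ± 0.44 (SE; edgeR unadjusted p = 0.0208, adjusted p = 0.742). *Ldhb* stood at 1328, 714 and 672 CPM in double-labelled pools, against 1021, 553 and 613 CPM in DiO-only pools. Its groups overlapped, with a log2 fold change of 0.31 ± 0.38 (SE; edgeR adjusted p = 0.978), which turned to -0.077 without double-labelled pool 1.

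The promoters of these 4 genes are shown because they are those of the enolase and lactate dehydrogenase pairs, in which both genes have an entry and the shares within the pair did not overlap between the groups. Each sequence is the 250 bases before the transcription start, 5′ to 3′ on the gene's strand, from RefSeq on GRCm38.p6. Capitals mark ACGTG or GCGTG on either strand, the core letters that hypoxia-inducible factors bind. CACGTG holds ACGTG on both strands and was counted once per strand. *Ldha* lies on chr7:46845554-46845803 (plus strand), *Ldhb* on chr6:142507958-142508207 (minus strand), *Eno1* on chr4:150236974-150237223 (plus strand) and *Eno2* on chr6:124769674-124769923 (minus strand).
Ldha: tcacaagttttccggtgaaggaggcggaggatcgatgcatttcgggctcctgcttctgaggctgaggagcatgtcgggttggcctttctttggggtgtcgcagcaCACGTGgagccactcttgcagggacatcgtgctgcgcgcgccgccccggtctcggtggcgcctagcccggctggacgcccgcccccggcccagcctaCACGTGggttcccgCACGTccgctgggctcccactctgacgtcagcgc
Ldhb: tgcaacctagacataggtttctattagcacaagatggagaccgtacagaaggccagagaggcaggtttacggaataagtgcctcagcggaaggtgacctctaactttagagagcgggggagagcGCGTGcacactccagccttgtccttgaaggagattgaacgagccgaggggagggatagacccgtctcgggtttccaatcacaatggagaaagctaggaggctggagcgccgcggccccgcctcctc
Eno1: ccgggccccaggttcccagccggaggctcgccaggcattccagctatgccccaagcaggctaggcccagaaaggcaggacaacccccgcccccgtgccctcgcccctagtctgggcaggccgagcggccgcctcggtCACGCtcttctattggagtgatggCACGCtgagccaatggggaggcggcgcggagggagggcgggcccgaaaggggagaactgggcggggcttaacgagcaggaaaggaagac
Eno2: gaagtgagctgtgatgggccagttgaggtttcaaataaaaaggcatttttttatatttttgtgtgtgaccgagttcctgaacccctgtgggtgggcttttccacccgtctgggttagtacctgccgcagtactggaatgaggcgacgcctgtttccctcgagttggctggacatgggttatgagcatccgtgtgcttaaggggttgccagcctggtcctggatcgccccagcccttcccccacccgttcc
The *Ldha* window had 5 matches, all to ACGTG, in 3 stretches. The *Eno1* window had 2 matches and the *Ldhb* window 1, all to GCGTG, and the *Eno2* window had 0. Among the other genes whose groups did not overlap, *Pkm* had 0 matches, *Aldoa* 1, *Gapdh* 2, *Slc2a1* 2 and *Pdha1* 3. Other genes with overlapping groups had from 0 (for example *Hk1* and *Gpi1*) to 4 (*Slc16a1* and *Pdk3*), and *Pdk2* had 2. A relation between matches and fold changes was not tested. Of the 34 genes, 32 had an entry, and 24 of those windows (75.0%) held either motif. Over all 32817 RefSeq windows of this length, 16.6% held ACGTG, 28.1% held GCGTG and 38.6% held either. Those windows include alternative starts of a gene. For each listed gene, only the start that best matched its coding transcript starts was taken. The 75.0% and the 38.6% are therefore not over like sets, and enrichment was not tested. A match is a description of the letters and not of a bound site.

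The share of an isozyme within its pair compares transcripts of the same library, so it does not depend on how libraries are scaled. *Ldha* made up 6.18%, 11.5% and 28.6% of *Ldha* and *Ldhb* per kilobase in double-labelled pools, against 29.2%, 33.8% and 34% in DiO-only pools. *Eno1* made up 53.5%, 42.7% and 53.6% of *Eno1* and *Eno2* in double-labelled pools, against 78.2%, 57.0% and 72.6% in DiO-only pools. *Slc2a1* made up 33.6%, 55.7% and 58.8% of *Slc2a1* and *Slc2a3* in double-labelled pools, against 70.4%, 64.0% and 65.7% in DiO-only pools. For these 3 pairs the widespread form held a smaller share in every double-labelled pool than in any DiO-only pool. The mean differences were -16.9, -19.3 and -17.3 percentage points. Each had an exact two-sided permutation p of 0.1, the smallest that 3 against 3 allows, and an adjusted exact p of 0.133 over the 4 pairs examined. In the fourth pair, *Hk1* made up at least 99.4% of *Hk1* and *Hk2* in every pool (exact two-sided permutation p = 1). The shares reuse the counts of *Ldha*, *Eno1* and *Slc2a1* given above and are not separate evidence. Shares overlapped between the groups for every gene among the phosphofructokinases, *Pfkfb* enzymes, mutases, monocarboxylate transporters and pyruvate dehydrogenase kinases. How often shares of other gene pairs in these data separate was not computed.

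**Figure D3:**
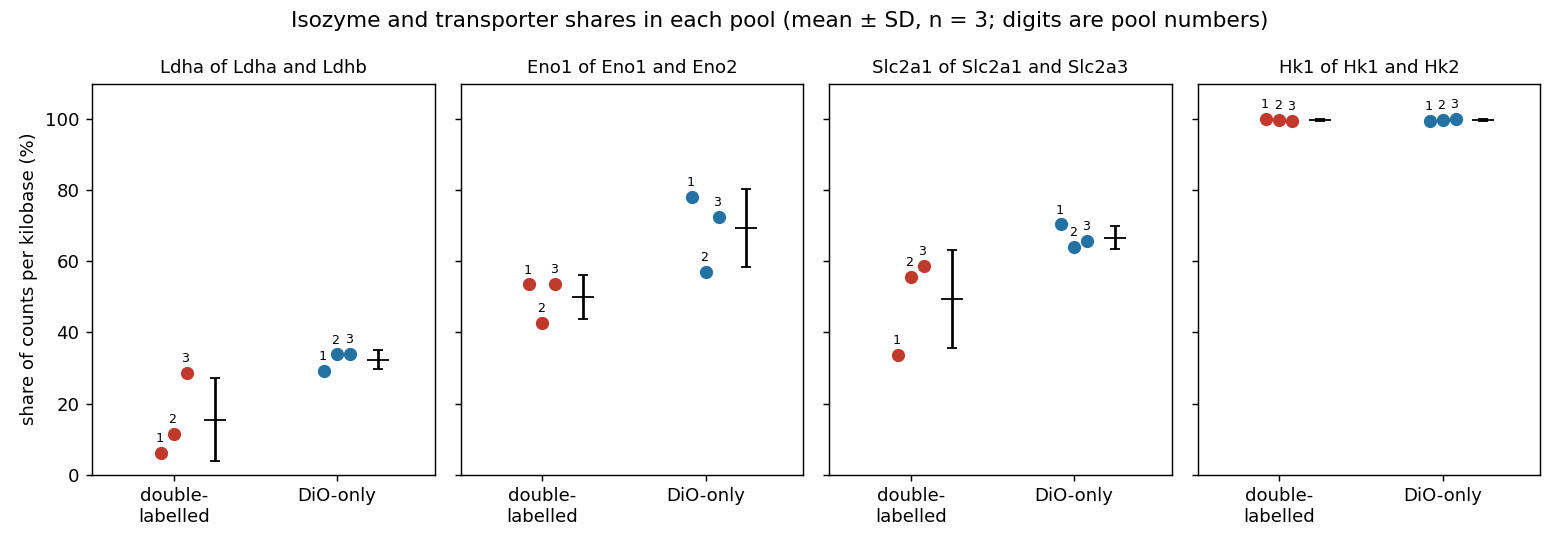
Share of counts per kilobase held by the first-named gene of each pair, in percent, with 1 point per pool (digits are pool numbers) and the mean ± SD (n = 3) beside them. In the first 3 panels all double-labelled points lie below all DiO-only points, with *Ldha* at 6.18 to 28.6% against 29.2 to 34%, and the hexokinase panel shows no separation.

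Lactate and pyruvate cross membranes through monocarboxylate transporters. MCT1 (*Slc16a1*) was the main form counted, at 76.3 ± 18.1 CPM in double-labelled pools and 69.2 ± 19.0 CPM in DiO-only pools (SD, n = 3), with overlapping groups. MCT4 (*Slc16a3*), typical of lactate-exporting cells, had 2, 1 and 24 counts in double-labelled pools and 2, 2 and 28 counts in DiO-only pools. The high-affinity neuronal form MCT2 (*Slc16a7*) had 89, 4 and 8 counts in double-labelled pools and 11, 5 and 3 counts in DiO-only pools. The *Slc16a7* counts are low but for double-labelled pool 1.

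At the entry to mitochondria, the E1 alpha subunit of pyruvate dehydrogenase (*Pdha1*) had 118, 116 and 81.9 CPM in double-labelled pools, against 138, 164 and 132 CPM in DiO-only pools. The groups did not overlap, and the log2 fold change was -0.46 ± 0.31 (SE; edgeR adjusted p = 0.942). *Map3k15*, on the opposite strand, shares exon sequence with *Pdha1*, the longest stretch being 425 bases. The counts of *Map3k15* were 70.8 to 95.9% of those of *Pdha1* per library. With the strand setting unknown, reads in the shared sequence cannot be assigned to either gene, and how many lay there is not known. The E1 beta subunit (*Pdhb*) averaged 257 ± 92.0 CPM in double-labelled pools and 225 ± 69.8 CPM in DiO-only pools, and the E2 subunit (*Dlat*) 75.4 ± 28.4 CPM and 92.6 ± 15.5 CPM (SD, n = 3). Both overlapped. The carrier subunits *Mpc1* and *Mpc2* overlapped as well, at 194 ± 99.3 and 202 ± 89.6 CPM in double-labelled pools and 239 ± 32.7 and 214 ± 80.8 CPM in DiO-only pools (SD, n = 3). An opposite-strand transcript, *4930506C21Rik*, had 90.2 to 116% of the counts of *Mpc1*, with a longest shared exon stretch of 217 bases.

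Pyruvate dehydrogenase kinases switch the complex off. *Pdk2* was the only one of the 31 genes higher in double-labelled pools at an unadjusted p under 0.05. It had 22.0, 7.32 and 95.5 CPM in double-labelled pools, against 16.3, 6.35 and 11.3 CPM in DiO-only pools, so pool 3 carried the difference. The log2 fold change was 1.87 ± 0.78 (SE; edgeR unadjusted p = 0.0345, adjusted p = 0.783), and without double-labelled pool 3 it was 0.36 (unadjusted p = 0.614). *Pdk3* averaged 22.0 ± 5.31 CPM in double-labelled pools and 20.0 ± 11.5 CPM in DiO-only pools (SD, n = 3). *Pdk1*, a hypoxia-induced kinase, averaged 5.41 ± 5.31 CPM and 8.80 ± 4.89 CPM in the same order.

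The double-labelled pools were not alike. In pools 1 and 2, 17 and 18 of the 31 genes (54.8% and 58.1%) lay below the DiO-only range, against 35.2% and 31.1% of all tested genes in the same pools. In pool 3 it was 10 genes (32.3%, against 32.5% of all tested genes). Above the DiO-only range lay 5, 0 and 7 genes in double-labelled pools 1, 2 and 3 (16.1%, 0% and 22.6%, against 31.3%, 25.8% and 31.9% of all tested genes). *Aldoa*, *Gapdh*, *Pkm*, *Ldha*, *Slc2a1* and *Pdha1* were below the range in all 3. The 34 genes together took 0.838 to 1.5% of counts in double-labelled pools and 1.02 to 1.80% in DiO-only pools, with overlap.

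**Figure D4:**
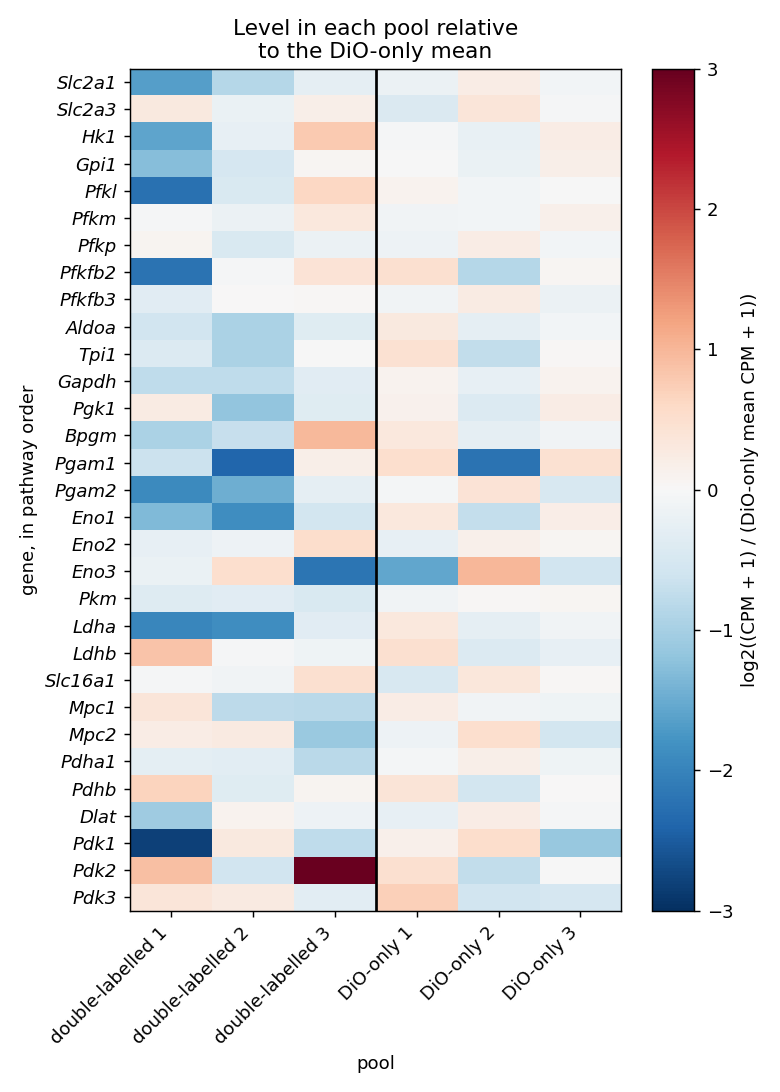
log2 of CPM + 1 in each pool over the DiO-only mean + 1, for the 31 tested genes in pathway order (blue below and red above the DiO-only mean, colours limited to ±3). Double-labelled pools 1 and 2 are blue for most genes, pool 3 is mixed with *Pdk2* as its reddest gene, and *Pgam1* is blue in pool 2 of either group.

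Neighbouring steps were set beside these genes from fixed lists. Of 42 other genes of glycolysis and pyruvate handling, 25 were tested. Among these 25, 8 were lower (32%, against 48.7% of all tested genes), with a median log2 fold change of 0.22. Those at an unadjusted p under 0.05 were *Pdp2*, a phosphatase that switches pyruvate dehydrogenase on, and *Pck2*, the mitochondrial phosphoenolpyruvate carboxykinase. *Pdp2* had 11.9, 10.6 and 24.0 CPM in double-labelled pools, against 6.86, 4.01 and 3.44 CPM in DiO-only pools (log2 fold change 1.70 ± 0.69, SE; edgeR adjusted p = 0.765). *Pck2* had 20.8, 26.3 and 14.7 CPM in double-labelled pools, against 12.1, 4.68 and 2.92 CPM in DiO-only pools (log2 fold change 1.63 ± 0.67, SE; edgeR adjusted p = 0.766). Neither had overlapping groups. The groups were apart for 3 of the 25 (12%, against 12.9% of all tested genes), the third being *Adpgk*, which was lower. It had 21, 24.9 and 23.9 CPM in double-labelled pools, against 26.7, 31.7 and 40.7 CPM in DiO-only pools (edgeR adjusted p = 0.957). *Aldoc*, the aldolase of astrocytes and some neurons, averaged 908 ± 711 CPM in double-labelled pools and 525 ± 195 CPM in DiO-only pools (SD, n = 3; edgeR adjusted p = 0.941), with overlap.

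Enzymes of the citric acid cycle lay close to the same level in both groups. Of 15 tested genes, 12 were lower in double-labelled pools (80%, against 71.0% of the 31 pathway genes and 48.7% of all tested genes). Their log2 fold changes lay between -0.32 and 0.15, with a median of -0.15. For 0 of them was the unadjusted edgeR p under 0.05, and for 0 were the groups apart. Citrate synthase (*Cs*), for example, averaged 163 ± 13.7 CPM in double-labelled pools and 200 ± 49.9 CPM in DiO-only pools (SD, n = 3). Of 8 tested genes that shuttle reducing equivalents from cytosolic NADH into mitochondria, 4 were lower (50%, against 48.7% of all tested genes) and 4 higher. The mitochondrial glycerol-3-phosphate dehydrogenase *Gpd2* had 46.2, 15.4 and 14.2 CPM in double-labelled pools, against 5.54, 13.0 and 3.95 CPM in DiO-only pools. Its groups did not overlap (log2 fold change 1.77 ± 0.68, SE; edgeR unadjusted p = 0.0239, adjusted p = 0.742). The groups were apart for 2 of the 8 (25%, against 12.9% of all tested genes), 1 higher and 1 lower. The lower one, *Got2*, had 174, 188 and 199 CPM in double-labelled pools, against 221, 233 and 346 CPM in DiO-only pools (edgeR adjusted p = 0.918).

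Other fits called some genes but 0 of these 34. DESeq2, started from all genes, called 75 of 15233 genes with an adjusted p (0.492%), edgeR without a filter on low counts called 79 of 28513 (0.277%), and edgeR with the replicate numbers as a block called 23 of 12954 (0.178%). The smallest adjusted p of a pathway gene in these 3 fits was 0.284, 0.131 and 0.117.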

How the data were processed

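The values the authors deposited are read counts per Ensembl gene, not normalised. The single-library files held the same counts as the table of all libraries. HISAT2, HTSeq and FastQC, with the build mm10, are named per the submitters' processing notes. Tool versions, gene annotation, strandedness of counting and handling of multi-mapping reads: not given in the sources used here. Per the labels' protocols, cDNA was amplified with SMART-Seq HT over 20 PCR cycles. Identifiers, lengths and overlaps were taken from GENCODE M21, which held 53858 of 53858 identifiers.

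Counts were filtered with filterByExpr by group (12954 genes kept), scaled with TMM, and compared with the robust two-sided quasi-likelihood test of edgeR 4.0.16 in R 4.3.3, with Benjamini-Hochberg adjustment over all tested genes and calls at 0.05. Common biological variation (BCV) was 0.587. The SE is the size of the log2 fold change over the root of F. A floor of 3 counts equals 0.457 to 1.00 CPM and covers counting error only, while SD and SE cover the spread between tubes. Shares use counts per kilobase of the longest APPRIS principal transcript. Near copies were found with BLAST 2.17.0. Alternatives were DESeq2 1.42.0, limma 3.58.1 voom with quality weights, other scalings and filters, the replicate block and leaving out each library. Figures were drawn with matplotlib 3.10.9.

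Members and lists were chosen with earlier results of these data known. Values per library are given for genes at an unadjusted p under 0.05 or without overlap and for the 8 of highest level per length, and other members by means, ranges and counts. Other lists are named by genes at an unadjusted p under 0.05. Values per library of *Pgam1*, *Hk1*, *Hk2*, *Slc16a3* and *Slc16a7*, and *Aldoc*, *Adpgk*, *Cs*, *Got2*, *Hif1a* and *Taldo1*, were singled out after their values were seen.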

Additional observations from a re-analysis of the deposited data

How the results depend on the processing

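Under the 13 alternatives, 0 of the 34 genes were called. Between 29 and 34 of them were tested, and 20 (of 29) to 26 (of 32) were lower in double-labelled pools. The share of all genes that were lower was not computed for the alternatives. The median log2 fold change of the pathway genes lay between -0.39 and -0.18. That median was 0.17 to 0.36 below the median of all genes in 11 alternatives. It was 0.029 above it without a filter and 0.035 above it with DESeq2 from all genes. Signs were followed for 12 genes: those at an unadjusted p under 0.05, without overlap or among the 8 of highest level per length. *Hk1* and *Pgam1* were not among them. Of 156 log2 fold changes (13 alternatives for each of the 12), 152 kept their sign and 4 did not. These were *Eno2* with limma voom (-0.025) and in 2 of the runs that left out a library (range -0.21 to 0.21), and *Ldhb* in 1 such run (range -0.077 to 0.63). Genes called over all genes were 79 without a filter on low counts and 75 with DESeq2. Genes of the pathway at an unadjusted p under 0.05 were 5 without the filter (14.7%, against 5.15% of all genes), 6 with limma voom (19.4%, against 7.6%), and 1 to 4 when a library was left out (3.12 to 12.9%, against 3.35 to 9.24%). The share was below that of all genes without double-labelled pool 2 (3.12%, against 7.84%) and without DiO-only pool 1 (3.12%, against 4.47%). *Eno1* and *Ldha* missed that level when either DiO-only pool 1 or double-labelled pool 2 was left out, and *Ldha* also without double-labelled pool 1 and with total-count scaling. *Pdk2* missed it with limma voom, under the replicate block, and without double-labelled pool 3, DiO-only pool 2 or DiO-only pool 3. The count of genes without overlap was 1 with total-count scaling (3.23%, against 11.2% of all genes) and 7 to 12 when a library was left out (21.9 to 38.7%, against 18.8 to 26.7%), where fewer libraries have to be apart. It was 12 without double-labelled pool 3 (38.7%, against 26.7%). The cause was not tested for the other shifts.

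The share differences ran from -23.5 to -12.3 points for *Ldha*, -25.5 to -14.9 for *Eno1* and -22.1 to -9.45 for *Slc2a1* over all alternatives, the last without double-labelled pool 1. The difference for *Hk1* changed sign (-0.152 to 0.153) when a library was left out. Shares with merged exon lengths were added after seeing the data.

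The replicate block called 23 genes over all genes, and 5 pathway genes had an unadjusted p under 0.05 (16.1%, against 8.23% of all genes). Deviations of same-numbered pools correlated across genes at 0.0838, 0.264 and 0.232, each library best with its own number. For DiO-only pool 1 the next value was 0.0307, with double-labelled pool 3. Pool 2 had the lowest total count in both groups (2997714 double-labelled and 3747145 DiO-only). Whether batch or depth lies behind these correlations was not tested, and the labels do not pair the pools.

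*Hk2*, *Slc16a3* and *Slc16a7* did not pass the filter on counts and were not tested with edgeR. Whether depth or low expression lies behind this was not tested.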

Other observations

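Regulators and targets of the hypoxia response were mixed in direction. Of 23 tested genes, 10 were lower in double-labelled pools (43.5%, against 48.7% of all tested genes), with a median log2 fold change of 0.06. *Hif1a*, of the oxygen-regulated subunit of hypoxia-inducible factor 1, averaged 45.6 ± 9.17 CPM in double-labelled pools and 42.0 ± 12 CPM in DiO-only pools (SD, n = 3; edgeR adjusted p = 0.987). *P4ha2*, a collagen prolyl hydroxylase, had 38.6, 44.3 and 36.4 CPM in double-labelled pools, against 14.4, 15.4 and 20.8 CPM in DiO-only pools (log2 fold change 1.23 ± 0.40, SE; edgeR unadjusted p = 0.0100, adjusted p = 0.675). *Ndrg1*, a hypoxia-induced gene that myelinating glia also express, had 18.3, 15.7 and 4.96 CPM in double-labelled pools, against 23.9, 33.1 and 68.0 CPM in DiO-only pools (log2 fold change -1.69 ± 0.59, SE; edgeR unadjusted p = 0.0142, adjusted p = 0.692). Neither gene had overlapping groups.

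Of 13 tested genes of the pentose phosphate pathway and of glycogen, 6 were lower (46.2%, against 48.7% of all tested genes). Their median log2 fold change was 0.26. The muscle form of glycogen phosphorylase, *Pygm*, which astrocytes also express, averaged 15.1 ± 8.32 CPM in double-labelled pools and 3.98 ± 3.34 CPM in DiO-only pools (SD, n = 3), with overlap (log2 fold change 1.96 ± 0.85, SE; edgeR unadjusted p = 0.0410, adjusted p = 0.815). Transaldolase, *Taldo1*, averaged 258 ± 101 CPM in double-labelled pools and 408 ± 123 CPM in DiO-only pools (SD, n = 3; edgeR adjusted p = 0.899).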
